A study of Mus musculus with 4 samples.

Results

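RNA-Seq of PGC-1α-overexpressed HT-22 cells was compared with that of control HT-22 cells after oxygen and glucose deprivation (OGD), gene by gene and across all functions. The comparison used 2 of the 4 libraries of the series, PGC-1α+OGD and Ctrl+OGD. Its members were the 10604 of 11502 gene symbols whose summed value averaged at least 1 FPKM (fragments mapped to a transcript, scaled for its length and for sequencing depth, a unit taken from the values since the table does not name one) over the 4 libraries. HT-22 is an immortalized mouse hippocampal line. The control cells are labelled wild type and, by the study's methods, carried a negative control lentivirus, while the other cells carried a lentivirus with PGC-1α. Both kinds of cells were selected with puromycin. The cells spent 2 h under nitrogen with carbon dioxide in medium that lacked glucose and serum, and then 24 h in their usual medium, so the RNA describes recovery from OGD. The Ctrl and PGC-1α libraries without OGD are given beside the pair where they show how a gene varied. Each group had 1 library, so the differences below could not be set against replicate error, and p values are not given.

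PGC-1α, encoded by Ppargc1a, is a transcriptional coactivator without a DNA-binding domain of its own. It works through nuclear receptors such as the estrogen-related receptors (ERR) and the PPARs and through the nuclear respiratory factors NRF1 and GABPA, and it is known for raising mitochondrial biogenesis, oxidative phosphorylation and fatty acid oxidation. In neurons it is also known for its link to the mitochondrial defence against reactive oxygen species.

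The summed totals were 353381 FPKM (Ctrl+OGD) and 347314 FPKM (PGC-1α+OGD), and the number of reads behind them is unknown. The labelled cell type, hippocampal neuron, was checked against marker genes. Of 24 neuron markers, the table lists Syp, Eno2 and Camk2a, whose summed level was 8.11 FPKM (Ctrl+OGD) and 6.45 FPKM (PGC-1α+OGD), and the defining markers Rbfox3, Map2, Tubb3 and Snap25 are not among the listed genes. Fibroblast and mesenchymal markers were listed for 9 of 14 genes and summed to 1735 FPKM and 1407 FPKM. S100a4 (702 FPKM and 437 FPKM) and Vim (508 FPKM and 457 FPKM) made up most of this sum, followed by Col1a2. Col3a1 (2.94 FPKM and 3.07 FPKM) and Acta2 (0.847 FPKM and 0.548 FPKM) were low. Thy1, Dcn, Lum, Fap and Twist1 are not among the listed genes. Astrocyte markers summed to 49.4 FPKM and 51.9 FPKM with 6 of 11 genes listed. Oligodendrocyte markers summed to 55.1 FPKM and 57.9 FPKM (4 of 10 listed) and microglia markers to 4.47 FPKM and 2.33 FPKM (4 of 10 listed). The listed neuronal markers of these cells were thus few and low. In bulk libraries, fewer cells that carry a transcript and less of it per cell cannot be told apart.

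The overexpressed gene was checked first. Ppargc1a (ENSMUSG00000029167, chr5:51454250-51567726 of GRCm38, minus strand) was at 0.900 FPKM (Ctrl), 35.1 FPKM (PGC-1α), 0.103 FPKM (Ctrl+OGD) and 8.41 FPKM (PGC-1α+OGD). Both PGC-1α libraries stood above both control libraries, and the level after OGD was below that without OGD. Its listed transcript of 6464 bases was at 26.0 FPKM (PGC-1α) and 8.41 FPKM (PGC-1α+OGD). That of 2754 bases was at 9.03 FPKM and 0 FPKM in the same libraries. Reads from the lentivirus and from the cells' own gene were not separated. Its log2 change after OGD was 3.09, which only Pcdhgc3, AL731706.1 and Palm3 exceeded among the genes compared. Changes are given as differences of log2(FPKM + 1), which understate the change of low genes. Where 4 values follow each other below, they keep that library order, and where a pair is given, Ctrl+OGD comes first.

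Most genes differed little between the OGD libraries. The median log2 change over all genes was -0.01, its median size was 0.13, and 95% of the genes lay between -0.71 and 0.66. By at least 1.5-fold, which is 0.58 on this scale, 327 genes (3.08%) were higher and 405 (3.82%) were lower in PGC-1α+OGD, and 47.1% of all genes had a change above 0. These 3 shares are the background against which the counts of each gene group are read below. At least 2-fold, 108 genes were higher and 114 lower, and at least 4-fold there were 14 each way. Just inside the 1.5-fold limit lay Tor1aip2 (0.59) and Arhgap29 (0.59), and just outside it Acacb and Zfp691 (0.58 each). On the other side, Mapk1ip1 (-0.59) and Rab40c (-0.59) lay just inside, and Hjurp (-0.58) and Relch (-0.58) just outside. The expression minimum was met by Il34 (mean 1.00 FPKM) and Mindy4 (1.00 FPKM) and missed by Foxp2 (0.998 FPKM) and Engase (0.998 FPKM).

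**Figure D1:**
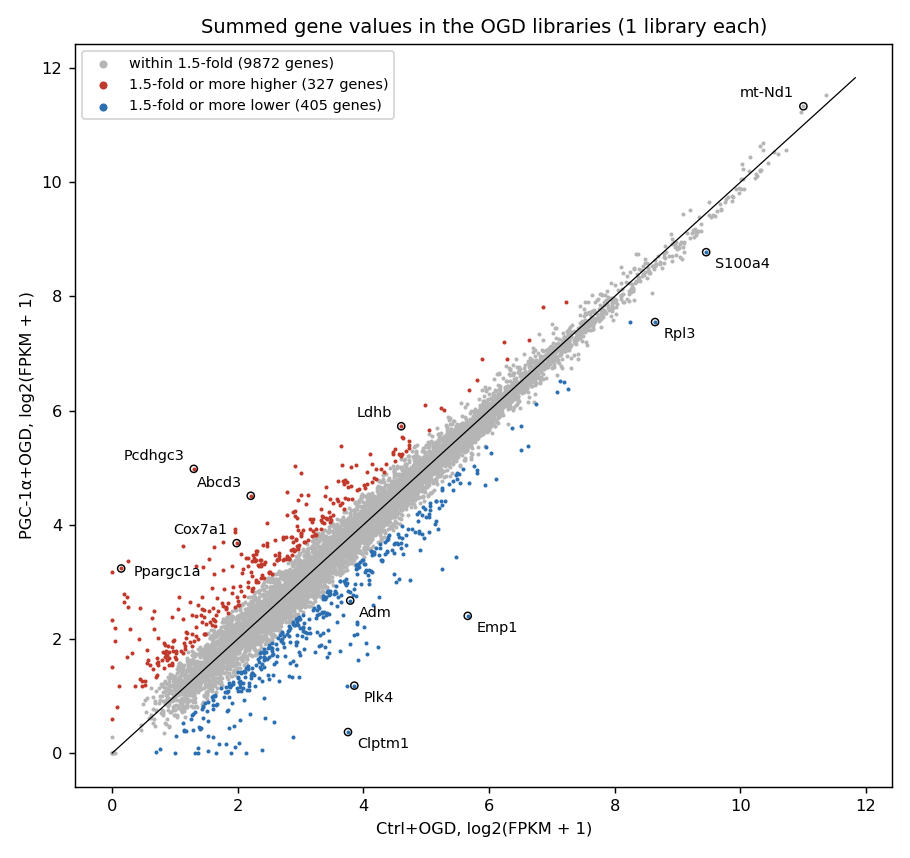
Each point is 1 of the 10604 genes, with its log2(FPKM + 1) in Ctrl+OGD on the x axis and in PGC-1α+OGD on the y axis, and the line marks equal values. Most genes lie along the line, 327 genes (red) lie at least 1.5-fold above it and 405 (blue) at least 1.5-fold below it, and the widest scatter is among genes of low level.

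The genes with the largest positive change came from membrane traffic, cell signaling, DNA helicases and lipid metabolism rather than from 1 pathway. Of the 30 highest, 8 belong to the function lists described below, which hold 2403 of the 10604 genes compared. Palm3, a paralemmin family gene, was at 5.80 FPKM (Ctrl), 2.07 FPKM (PGC-1α), 0.185 FPKM (Ctrl+OGD) and 9.30 FPKM (PGC-1α+OGD), a log2 change of 3.12 after OGD. Abcd3, a fatty acid transporter of the peroxisomal membrane, was at 11.8, 6.05, 3.61 and 21.7 FPKM in the same order (2.30). Both genes were lowest in Ctrl+OGD and highest in PGC-1α+OGD, with the libraries without OGD in between. Hacd1, a dehydratase of very long chain fatty acid elongation, was at 26.3, 30.2, 6.52 and 31.8 FPKM (2.13), so that Ctrl+OGD alone stood apart. The same held for Plekhg2, a guanine nucleotide exchange factor (4.91, 5.31, 0.142 and 5.24 FPKM, 2.45, or 0.88 by its highest transcript alone), and for Vps18, a subunit of the complexes that tether endosomes and lysosomes (3.16, 4.22, 0.0363 and 3.57 FPKM, 2.14). Trappc11, part of the TRAPP tethering complex, was at 8.78, 9.71, 2.09 and 11.3 FPKM (1.99). Arhgef11, another exchange factor, was at 15.5, 13.4, 2.90 and 13.6 FPKM (1.91). In these genes the control cells after OGD held the low value and the other 3 libraries were alike within 1.5-fold.

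Of the 30 highest genes, 9 were also at least 1.5-fold higher in PGC-1α than in Ctrl without OGD. Among these were Matr3, Golga2 and Nadk2. Matr3, a nuclear matrix protein that binds RNA, was at 5.77 FPKM (Ctrl), 22.96 FPKM (PGC-1α), 7.02 FPKM (Ctrl+OGD) and 28.9 FPKM (PGC-1α+OGD) (log2 change 1.90 after OGD). Golga2, which encodes the Golgi matrix protein GM130, was at 11.6, 48.6, 11.4 and 40.5 FPKM (1.74). Nadk2, the mitochondrial NAD kinase, was at 0.554, 33.3, 1.71 and 8.58 FPKM (1.82). In all 3 genes both PGC-1α libraries lay above both control libraries. The DNA helicase gene Recql5 was listed at 0 in both control libraries, at 3.01 FPKM (PGC-1α) and at 4.01 FPKM (PGC-1α+OGD), and no fold is given. Pif1, another helicase gene, was at 1.396, 0.925, 0.188 and 4.90 FPKM (2.31). Pif1 was thus highest in PGC-1α+OGD, as was the cofilin kinase gene Tesk1 (1.78, 2.47, 2.40 and 11.9 FPKM, 1.93).

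Some of the largest positive changes cannot be assigned to 1 gene. Pcdhgc3, with the largest log2 change of all (3.68, from 1.46 FPKM to 30.5 FPKM), shares exons on the same strand with many protocadherin genes of its cluster. Mrps34, a mitochondrial ribosomal protein gene (0.138, 10.4, 0.141 and 5.89 FPKM, 2.59), shares exons with Nme3. AL731706.1 (0.000325 FPKM (Ctrl+OGD) and 7.98 FPKM (PGC-1α+OGD), 3.17) shares exons with Mkks, and Scamp4 (1.17 FPKM and 11.3 FPKM, 2.502) with Gm49322. The values of such genes depend on how reads were divided between the partners.

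The genes with the largest negative change included a membrane glycoprotein, a centriole kinase, a glutamate receptor and transport proteins. Of the 30 lowest, 4 belong to the function lists, which hold 2403 of the 10604 genes compared. Emp1, a tetraspan membrane protein gene (ENSMUSG00000030208, chr6:135362545-135383173 of GRCm38, plus strand), was at 39.0 FPKM (Ctrl), 4.75 FPKM (PGC-1α), 49.6 FPKM (Ctrl+OGD) and 4.29 FPKM (PGC-1α+OGD). Its log2 change after OGD was -3.26, and both of its listed transcripts were lower. Emp1 thus separated the control from the PGC-1α libraries whether or not the cells had undergone OGD. Fam167b (41.6, 11.7, 43.7 and 9.77 FPKM, -2.05), Cse1l, the export receptor of importin α (21.7, 7.85, 36.9 and 8.37 FPKM, -2.02), and Kctd3 (14.6, 2.31, 15.1 and 3.63 FPKM, -1.80) were likewise lower in both PGC-1α libraries than in both controls. So was Slc47a1, an organic cation exporter gene (7.34, 0.825, 9.89 and 2.37 FPKM, -1.69). Grik5, a kainate receptor subunit gene, was at 4.58 FPKM (Ctrl) and 4.201 FPKM (Ctrl+OGD), listed at 0 in PGC-1α and at 0.0375 FPKM (PGC-1α+OGD). These genes were low in both PGC-1α libraries.

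In other genes the PGC-1α+OGD library alone was low. Plk4, the kinase that starts centriole duplication, was at 7.15 FPKM (Ctrl), 7.01 FPKM (PGC-1α), 13.5 FPKM (Ctrl+OGD) and 1.27 FPKM (PGC-1α+OGD) (log2 change -2.67). Mob1a, an adaptor of the Hippo kinases, was at 13.0, 11.3, 13.5 and 3.18 FPKM (-1.79), and Rell1 was at 17.7, 13.3, 14.0 and 2.11 FPKM (-2.27). B9d1, a gene of the ciliary transition zone, was at 9.68, 11.3, 15.4 and 2.83 FPKM (-2.10). Clptm1 had the most negative change of all, at 8.14, 2.68, 12.5 and 0.290 FPKM (-3.39), with PGC-1α the second lowest library. Xkr5 differed in another way, with 6.32 FPKM (Ctrl+OGD) and 0.147, 0.0667 and 0.215 FPKM (Ctrl), PGC-1α and PGC-1α+OGD. Its change of -2.59 thus came from a high value in control cells after OGD, as did in part that of Limd1 (4.25, 2.87, 15.7 and 2.33 FPKM, -2.32). Hdac10 (2.71 FPKM (Ctrl+OGD)) and Lhpp (2.14 FPKM) were listed at 0 in PGC-1α+OGD and have no fold.

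**Figure D2:**
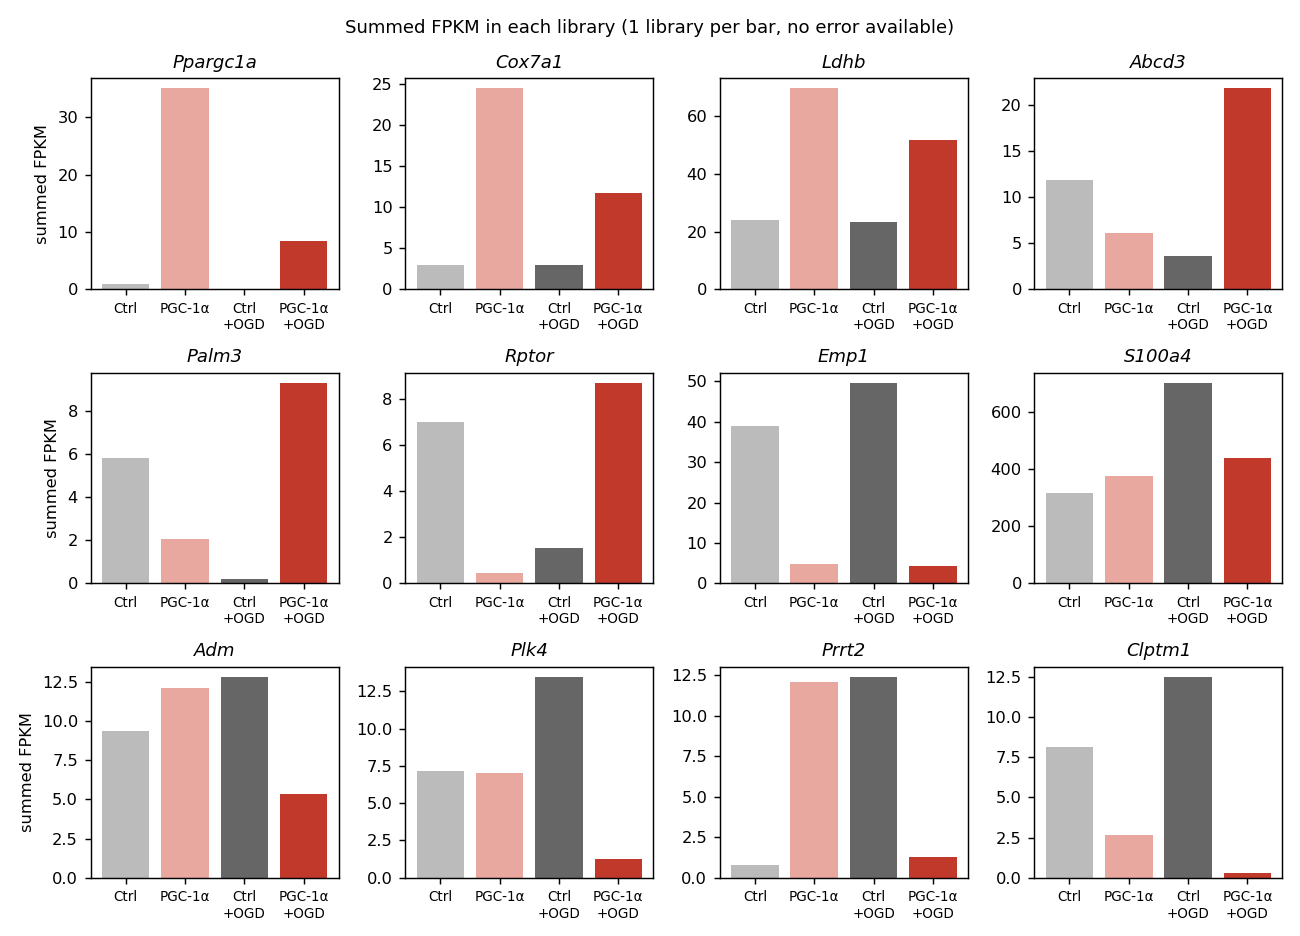
Each panel shows the summed FPKM of 1 gene in the Ctrl and PGC-1α libraries, first without and then after OGD, with 1 library per bar and each y axis starting at 0. Ppargc1a, Cox7a1 and Ldhb were higher and Emp1 was lower in both PGC-1α libraries, while Abcd3, Palm3 and Rptor were lower in PGC-1α than in Ctrl and higher after OGD.

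Among the 30 genes with the largest positive change, 9 were also at least 1.5-fold higher in PGC-1α than in Ctrl, 9 were at least 1.5-fold lower there and 12 were within 1.5-fold. Among the 30 with the most negative change, 11 were also lower without OGD, 4 were higher and 15 were within 1.5-fold. Over all genes compared, 4.91% were at least 1.5-fold higher and 5.63% at least 1.5-fold lower in PGC-1α than in Ctrl, which shares no library with the OGD pair. Of the 327 higher genes, 138 had both PGC-1α libraries above both control libraries, against 12.8% of all genes, and of the 405 lower genes, 183 had both below, against 16.8%. Genes chosen for a difference in this pair meet such an order more easily, so these counts are a description.

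The subunits of the respiratory chain and the ATP synthase were higher after OGD in PGC-1α cells as a broad small shift, with few genes past 1.5-fold. Of 81 nuclear-encoded subunit genes, 70 had a positive log2 change, 3 passed 1.5-fold upwards and 0 downwards, and their median log2 change was 0.17. Their summed level was 10318 FPKM (Ctrl+OGD) and 11771 FPKM (PGC-1α+OGD), or 2.92% and 3.39% of the total. In PGC-1α vs Ctrl without OGD, the list medians were larger than those given next for the OGD pair. Without OGD they were 0.40 (nuclear complex I), 0.55 (complexes II and III), 0.49 (nuclear cytochrome c oxidase) and 0.49 (ATP synthase). The summed level of each of these lists was lowest in Ctrl, as for nuclear complex I (2745, 3615, 3305 and 3745 FPKM). Whether Ctrl was an unusual library was not tested. The values below are again those after OGD. The 14 genes of complexes II and III had a median of 0.26, and all 14 were above 0, from 0.07 for Uqcr11 to 0.41 for Sdha. Sdha, the flavoprotein of succinate dehydrogenase, was at 75.9 FPKM (Ctrl), 112 FPKM (PGC-1α), 82.4 FPKM (Ctrl+OGD) and 110 FPKM (PGC-1α+OGD). The Rieske iron-sulfur protein gene Uqcrfs1 was at 55.5, 81.4, 60.8 and 80.3 FPKM (0.39), and cytochrome c, Cycs, at 56.7, 107, 103 and 130 FPKM (0.34). In Sdha and Uqcrfs1 both PGC-1α libraries stood above both controls, whereas Cycs in Ctrl+OGD was close to its level in PGC-1α.

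The 17 ATP synthase genes had a median of 0.19, with 14 above 0, and the largest change was that of Atp5g1, a c-ring subunit (72.7, 156, 127 and 183 FPKM, 0.52). Atp5b, the catalytic beta subunit, was the most abundant, at 440, 663, 543 and 696 FPKM (0.36). Atpif1, the inhibitor of the enzyme, was at 335 FPKM (Ctrl+OGD) and 320 FPKM (PGC-1α+OGD) (-0.06), so it did not share the direction of the subunits. Of 37 nuclear complex I genes, 31 were above 0 with a median of 0.14, and 2 were past 1.5-fold. Ndufb10 was at 38.0 FPKM (Ctrl), 87.4 FPKM (PGC-1α), 58.2 FPKM (Ctrl+OGD) and 119 FPKM (PGC-1α+OGD) (1.02), and Ndufa12 at 97.4, 124, 115 and 223 FPKM (0.95). Both genes were highest in PGC-1α+OGD. Ndufa3 had the lowest change of complex I, from 51.5 FPKM to 34.4 FPKM (-0.57), just within 1.5-fold. The 13 nuclear cytochrome c oxidase genes had a median of 0.09, with 11 above 0, and Cox7a1 alone was past 1.5-fold. Cox7a1, the heart and muscle form of subunit VIIa, was at 2.92, 24.5, 2.95 and 11.8 FPKM (1.70), so both PGC-1α libraries stood above both controls. Cox5a went from 80.0 FPKM (Ctrl+OGD) to 66.0 FPKM (PGC-1α+OGD) (-0.27), although it was at 23.8 FPKM (Ctrl) and 60.2 FPKM (PGC-1α).

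All 13 mitochondrially encoded subunits had a log2 change above 0, from 0.06 for mt-Nd6 to 0.33 for mt-Atp8, with a median of 0.26 and 0 past 1.5-fold. Their share of the total was 4.37% (Ctrl+OGD) and 5.31% (PGC-1α+OGD), against 4.23% in Ctrl and 5.32% in PGC-1α. They hold 9 of the 10 largest positive differences in FPKM, and Atp5b is the remaining one. mt-Nd1, a core subunit of complex I, was at 1449 FPKM (Ctrl), 2364 FPKM (PGC-1α), 2056 FPKM (Ctrl+OGD) and 2579 FPKM (PGC-1α+OGD). mt-Cytb, the cytochrome b of complex III, was at 1972, 2315, 2011 and 2413 FPKM (0.26). mt-Nd6 was at 184 FPKM and 191 FPKM in the OGD libraries, and it is the only one of the 13 that is read from the other strand. mt-Atp8 shares bases with mt-Atp6, and mt-Nd4 with mt-Nd4l, so the reads of these pairs may be shared. The shift was thus small for each gene and of 1 sign.

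**Figure D3:**
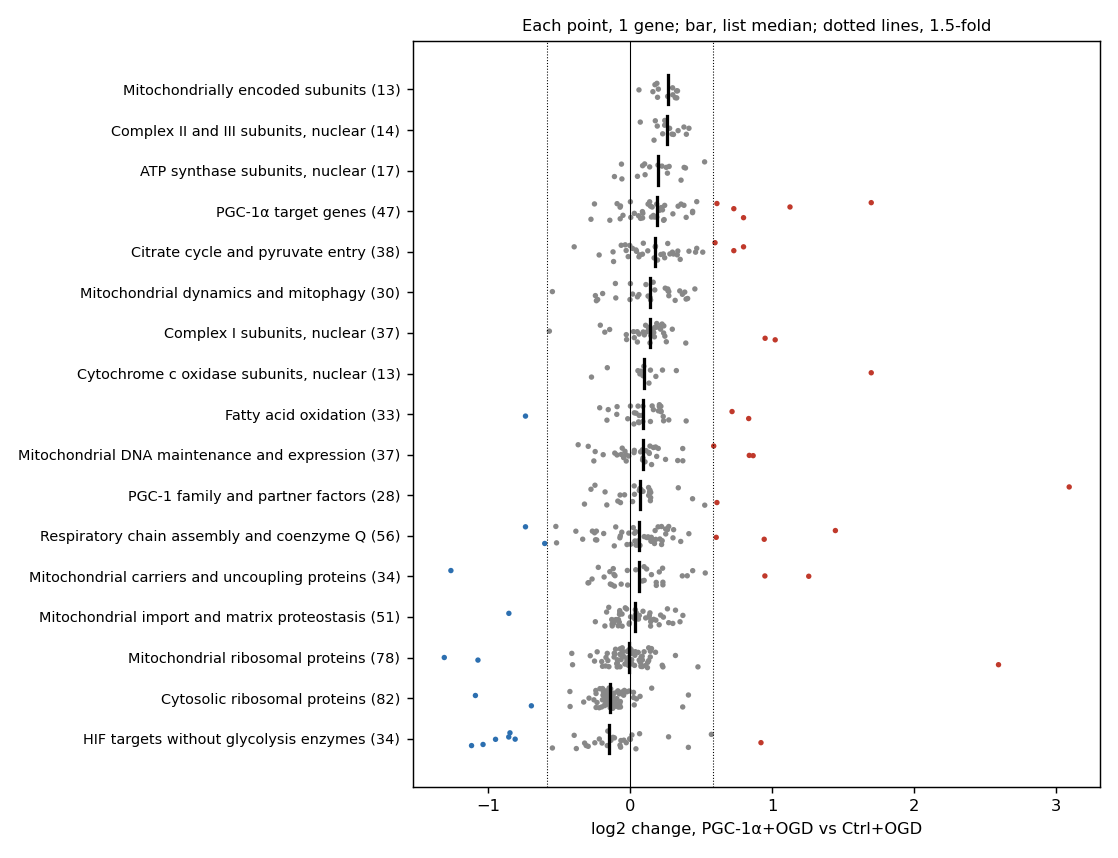
Each point is the log2 change of 1 gene in PGC-1α+OGD vs Ctrl+OGD, grouped by list with the number of genes in brackets; the black bar is the list median and the dotted lines mark 1.5-fold. Mitochondrially encoded subunits and complexes II and III lie wholly above 0, mitochondrial ribosomal proteins are centred at -0.01, and cytosolic ribosomal proteins and HIF targets lie mostly below 0.

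Known PGC-1α target genes were higher in most cases and none was past 1.5-fold downwards. Of 47 genes compared, 39 had a positive change, 5 were past 1.5-fold upwards and 0 downwards, with a median of 0.19. Beside Cox7a1, these were Ldhb, the lactate dehydrogenase chain typical of oxidative tissue (24.0, 69.7, 23.3 and 51.9 FPKM, 1.12), and Pdk4, a kinase that shuts pyruvate dehydrogenase (4.90, 11.0, 5.31 and 9.96 FPKM, 0.80). Idh3a, the alpha subunit of the NAD-linked isocitrate dehydrogenase, was at 33.9, 82.5, 55.3 and 92.3 FPKM (0.73). In these 4 genes both PGC-1α libraries lay above both controls. Gabpa, the DNA-binding subunit of nuclear respiratory factor 2, was at 34.7, 32.3, 23.2 and 35.9 FPKM (0.61), so that Ctrl+OGD was its only lower library. The antioxidant and uncoupling genes of the list stayed within 1.5-fold. Sod2 was at 24.4 FPKM and 30.2 FPKM in the OGD libraries (0.30), Prdx3 at 36.0 FPKM and 42.7 FPKM (0.24), Gpx1 at 54.6 FPKM and 51.9 FPKM (-0.07) and Ucp2 at 17.1 FPKM and 15.3 FPKM (-0.14). Sod2 and Prdx3 had a positive and Gpx1 and Ucp2 a negative sign. Because the list holds genes chosen as PGC-1α targets with results of these libraries known, its direction is not independent evidence.

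The partners of PGC-1α differed little. Of 28 genes of the PGC-1 family, its DNA-binding partners and its cofactors, 19 were above 0, and Ppargc1a and Gabpa alone were past 1.5-fold. Esrra, the ERRα gene, was at 4.73 FPKM (Ctrl), 8.75 FPKM (PGC-1α), 5.13 FPKM (Ctrl+OGD) and 7.30 FPKM (PGC-1α+OGD) (0.44). Nrf1 had a change of -0.07, Yy1 of -0.04 and Pparg of -0.07. The relatives Ppargc1b (5.64 FPKM and 4.92 FPKM in the OGD libraries, -0.17) and Pprc1 (13.2 FPKM and 11.5 FPKM, -0.18) did not follow Ppargc1a. The acetyltransferase gene Kat2a was at 6.91 FPKM and 10.4 FPKM (0.52), and the deacetylase gene Sirt1 at 5.07 FPKM and 4.11 FPKM (-0.25).

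The RefSeq promoter windows (GRCm38.p6, 250 bases before to 50 after each start) were searched on both strands for letters that the partners of PGC-1α are known to bind. TNAAGGTCA, an ERR site, was held by 1.28% of all 32851 windows, GCGC, any base and TGCGC, a core of the NRF1 site, by 4.60%, and CCGGAAG, an ETS site of the GABPA type, by 8.86%. A window was available for 66 of the 81 nuclear subunit genes, of which 3 held the first motif, 18 the second and 16 the third. Of 43 of the 47 PGC-1α target genes with a window, 0 held the first, 5 (11.6%) the second and 11 (25.6%) the third. Of the 8406 genes compared that had a window, 0.809% held the first, 12.6% the second and 22.4% the third. Shown are 100 bases before the start, 5′ to 3′, with motif letters in capitals, of the 3 subunit genes whose windows held the ERR letters and of Gabpa, the only one of the 5 target genes past 1.5-fold found to hold any of the 3 motifs (Idh3a had no window). The stretches are chr2:73911327-73911426 (minus strand) for Atp5g3, chr16:37654369-37654468 (minus) for Ndufb4, chr9:50603850-50603949 (minus) for Sdhd and chr16:84835024-84835123 (plus) for Gabpa.
Atp5g3: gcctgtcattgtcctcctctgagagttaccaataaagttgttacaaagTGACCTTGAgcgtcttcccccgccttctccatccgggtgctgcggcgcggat
Ndufb4: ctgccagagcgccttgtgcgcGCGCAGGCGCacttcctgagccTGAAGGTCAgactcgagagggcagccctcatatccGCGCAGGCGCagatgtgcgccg
Sdhd: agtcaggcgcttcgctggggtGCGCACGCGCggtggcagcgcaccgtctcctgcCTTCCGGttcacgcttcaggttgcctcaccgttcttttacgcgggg
Gabpa: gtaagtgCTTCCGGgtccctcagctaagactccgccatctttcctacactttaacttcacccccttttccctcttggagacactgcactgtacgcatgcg
In Atp5g3 the capitals mark the ERR letters on the opposite strand 52 bases before the start. In Ndufb4 they mark the ERR letters at 57 bases and NRF1 cores, read on the opposite strand, at 79 and 22 bases before the start. In Sdhd they mark an NRF1 core and the ETS letters, both on the opposite strand, its ERR letters lying behind the start. In Gabpa they mark the ETS letters on the opposite strand. The log2 changes of these 4 genes after OGD were 0.39, 0.17, 0.30 and 0.61. Across the nuclear subunit genes, the 18 with an NRF1 core had a median change of 0.17 and the 48 without one a median of 0.13, and for the ETS letters the medians were 0.11 in 16 genes and 0.16 in 50. Such a match is a description of letters and not of binding. The windows of Cox7a1, Ldhb and Pdk4 held none of the 3 motifs.

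Enzymes of the citrate cycle and pyruvate entry were mostly higher, with 29 of 38 genes above 0, 3 past 1.5-fold upwards, 0 downwards and a median of 0.18. Beside Pdk4 and Idh3a, Pdk2 was past the limit (14.4, 17.6, 9.04 and 14.2 FPKM, 0.60). Dlat, an acetyltransferase of pyruvate dehydrogenase, was at 11.1, 19.3, 13.8 and 19.4 FPKM (0.46). For Dlat the PGC-1α libraries were alike and above the controls. Pdk1, the pyruvate dehydrogenase kinase known as a HIF target, had the lowest change of the list, from 7.81 FPKM to 5.69 FPKM (-0.40).

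Fatty acid oxidation genes were above 0 in 26 of 33 cases with a median of 0.09. Acsl1, which activates long-chain fatty acids, was at 11.4, 9.38, 6.57 and 12.5 FPKM (0.83), and Crat, the carnitine acetyltransferase, at 12.02, 15.4, 11.4 and 19.4 FPKM (0.72). Acad9, an acyl-CoA dehydrogenase that also serves complex I assembly, was lower, at 5.17, 6.13, 8.75 and 4.84 FPKM (-0.74). Crat was highest and Acad9 lowest in PGC-1α+OGD. Among assembly factors and coenzyme Q genes, 37 of 56 were above 0, 3 were past 1.5-fold upwards and 2 downwards, led by Coq6 (0.175 FPKM to 2.20 FPKM, 1.44) and Ndufaf4 (4.07 FPKM to 8.74 FPKM, 0.94). Of 34 mitochondrial carriers and uncoupling proteins, 18 were above 0. The aspartate-glutamate carrier gene Slc25a12 was at 4.26 FPKM and 11.6 FPKM in the OGD libraries (1.26), and the iron carrier gene Slc25a37, mitoferrin-1, at 9.26 FPKM and 3.27 FPKM (-1.26). These carriers differed by the same size in opposite directions.

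The mitochondrial ribosome had a median near 0 in the OGD pair, unlike the respiratory chain subunits above. In PGC-1α vs Ctrl without OGD, its median was 0.20 with 61 of 78 genes above 0. Its summed level was lowest in Ctrl (2692, 3172, 3354 and 3331 FPKM). After OGD, mitochondrial ribosomal proteins were above 0 in 35 of 78 genes with a median of -0.01, 1 was past 1.5-fold upwards (Mrps34) and 2 downwards. These were Mrpl21 (68.2 FPKM to 26.9 FPKM, -1.31) and Mrpl3 (7.49 FPKM to 3.03 FPKM, -1.07). Genes of mitochondrial DNA maintenance and expression had a median of 0.09 with 23 of 37 above 0. Polrmt, the mitochondrial RNA polymerase, was at 3.06, 2.30, 1.69 and 3.90 FPKM (0.87), and Tfam had a change of 0.19. Import and matrix proteostasis genes were above 0 in 27 of 51 cases (median 0.03), with Timm44, the anchor of the import motor, at 19.9 FPKM and 10.5 FPKM (-0.86). Fusion, fission and mitophagy genes were above 0 in 22 of 30 cases (median 0.14), and none was past 1.5-fold. Mfn1, a fusion GTPase, was at 13.4 FPKM and 17.3 FPKM (0.35), and the hypoxia-responsive mitophagy receptor Bnip3 at 78.3 FPKM and 53.2 FPKM (-0.55). Over the mitochondrial lists together, 295 of 445 genes were above 0, 17 were higher and 6 lower by at least 1.5-fold, and their share of the total was 11.1% (Ctrl+OGD) and 12.7% (PGC-1α+OGD). The 10159 genes outside these lists had a median of -0.02.

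Glycolysis showed no common direction in the OGD pair, with 12 of 23 genes above 0 and a median of 0.01. In PGC-1α vs Ctrl without OGD, 18 of the 23 were above 0 with a median of 0.41. The summed level of the list was lowest in Ctrl (1890, 2601, 2398 and 2509 FPKM). Ctrl was also lowest for the proteasome subunits (2864, 3306, 3994 and 3699 FPKM). It was not for the cytosolic ribosomal proteins (38435, 34348, 41622 and 37851 FPKM). Whether Ctrl was an unusual library was not tested. After OGD, Ldhb and the regulatory kinase gene Pfkfb2 (0.795 FPKM to 2.70 FPKM, 1.05) were past 1.5-fold upwards. Adpgk (23.1 FPKM to 11.0 FPKM, -1.01), the glucose transporter gene Slc2a1 (16.5, 12.9, 19.8 and 10.6 FPKM, -0.85) and Eno2 (-0.69) were past it downwards. Slc2a1 was lowest in PGC-1α+OGD and Pfkfb2 in Ctrl+OGD. Hk1 was at 21.3 FPKM and 29.7 FPKM (0.46) and Hk2 at 8.43 FPKM and 5.71 FPKM (-0.49), so the 2 hexokinases differed in sign. In glycogen metabolism, the muscle phosphorylase gene Pygm was at 4.49, 13.9, 3.87 and 10.2 FPKM (1.20), and the branching enzyme gene Gbe1 at 4.82 FPKM and 2.27 FPKM (-0.83). Apart from Nadk2, no gene of NAD metabolism and the sirtuins was past 1.5-fold among 19. Sterol synthesis had a median of -0.02 with Dhcr7 (4.17 FPKM to 9.41 FPKM, 1.01) and Msmo1 (29.4 FPKM to 17.0 FPKM, -0.76) past the limit on opposite sides.

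Hypoxia-inducible factor (HIF) targets were lower in PGC-1α+OGD than in Ctrl+OGD. Leaving out glycolysis enzymes, 8 of 34 genes were above 0, 6 were at least 1.5-fold lower and 1 was higher, with a median of -0.15 and a summed level of 1365 FPKM and 1181 FPKM. Adm, the vasodilator adrenomedullin, was at 9.38 FPKM (Ctrl), 12.1 FPKM (PGC-1α), 12.8 FPKM (Ctrl+OGD) and 5.37 FPKM (PGC-1α+OGD) (-1.12). Ndrg1 was at 70.3, 57.5, 50.5 and 25.6 FPKM (-0.95), Car9, a carbonic anhydrase of the cell surface, at 38.9, 31.2, 32.0 and 17.2 FPKM (-0.86), and Egln3, an oxygen sensor of the pathway, at 33.5, 33.5, 42.0 and 23.5 FPKM (-0.81). In each of these 4 genes PGC-1α+OGD was the lowest library. Slc2a1, given above, was lower as well. Angptl4, a lipoprotein lipase inhibitor that PPARs also induce, was at 38.9, 44.2, 16.6 and 32.3 FPKM (0.92), and Vegfa had a change of 0.00. Pdk1 and Bnip3, named above, had the same sign as the lower HIF targets.

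Other stress groups differed little. The 24 antioxidant genes had a median of -0.06 with 8 above 0, and Glrx2, the mitochondrial glutaredoxin, was the only one past 1.5-fold (5.26 FPKM to 9.53 FPKM, 0.75). Sod1, the most abundant of them, was at 504 FPKM and 424 FPKM (-0.25). The NRF2 and glutathione genes had a median of -0.09 with 7 of 32 above 0. In that list 1 gene was past 1.5-fold upwards (0.92) and 0 downwards. Gstm1, the most abundant, was at 442, 297, 387 and 266 FPKM (-0.54). Hmox1, heme oxygenase, was at 18.6 FPKM and 12.6 FPKM (-0.53). The ATF4 and amino acid response had 12 of 35 genes above 0 (median -0.07), with Nupr1 at 160, 103, 152 and 82.4 FPKM (-0.88). Unfolded protein response genes (33) and heat shock and chaperone genes (39) had medians of -0.07 and -0.05 and no member past 1.5-fold. Of 30 p53 targets, Mdm2 alone was past the limit (12.7 FPKM to 6.08 FPKM, -0.96). Among 29 BCL2 family and caspase genes, the pro-apoptotic Bcl2l11 was higher (4.02 FPKM to 6.98 FPKM, 0.67), while Diablo (22.4 FPKM to 13.3 FPKM, -0.72) and the anti-apoptotic Bcl2l1 (23.4 FPKM to 14.8 FPKM, -0.63) were lower. The cell death genes past the limit thus did not point one way.

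In signaling, the insulin pathway held 5 higher and 0 lower genes among 33, with 18 above 0 and a median of 0.06. Its lowest member was Pdk1 (-0.40), the pyruvate dehydrogenase kinase counted with the citrate cycle above. Insr, the insulin receptor, was at 7.86 FPKM (Ctrl), 5.14 FPKM (PGC-1α), 3.74 FPKM (Ctrl+OGD) and 10.1 FPKM (PGC-1α+OGD) (1.23). Pik3r1, the regulatory subunit of PI3-kinase, was at 31.9, 32.2, 21.6 and 33.5 FPKM (0.61), Ptpn1, a phosphatase that acts on the receptor, at 17.3, 12.7, 9.11 and 16.9 FPKM (0.82), and the adaptor Grb2 at 29.5, 27.0, 19.1 and 29.2 FPKM (0.59). In these 4 genes Ctrl+OGD was the lowest library, and PGC-1α+OGD was within 1.5-fold of Ctrl. Igfbp7 was at 2.16 FPKM and 5.58 FPKM (1.06). In the mTOR and AMPK list, Rptor, the raptor subunit that defines mTOR complex 1, was at 6.99, 0.444, 1.53 and 8.68 FPKM (1.94), whereas Akt1s1, an inhibitor of that complex, was lower (28.1 FPKM to 15.8 FPKM, -0.79). TGF-β and BMP genes held 3 lower and 0 higher members among 28, including the BMP antagonist Grem1 (3.54 FPKM to 1.35 FPKM, -0.95) and Bmp1 (11.9 FPKM to 7.08 FPKM, -0.67). Camk2d, a calmodulin-dependent kinase, was at 21.4 FPKM and 10.3 FPKM (-0.99), and the CREB coactivator Crtc2 at 6.34 FPKM and 10.9 FPKM (0.70). Nr4a2 was the only one of 34 immediate early and MAPK feedback genes past 1.5-fold (5.12 FPKM to 2.02 FPKM, -1.02).

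Ribosomal proteins and translation factors were mostly lower by small amounts, and aminoacyl-tRNA synthetases were not. Of 82 cytosolic ribosomal protein genes, 8 were above 0, 2 were at least 1.5-fold lower and 0 were higher, with a median of -0.14. In PGC-1α vs Ctrl without OGD, 12 of the 82 were above 0 with a median of -0.15. Their summed level was 41622 FPKM (Ctrl+OGD) and 37851 FPKM (PGC-1α+OGD), or 11.8% and 10.9% of the total. Rpl3 was at 433 FPKM (Ctrl), 375 FPKM (PGC-1α), 399 FPKM (Ctrl+OGD) and 187 FPKM (PGC-1α+OGD) (-1.09), and Rps25 at 118, 124, 146 and 89.5 FPKM (-0.70). Rpl3 and Rps25 were thus lowest in PGC-1α+OGD. Rps10 (324 FPKM to 430 FPKM, 0.41) had the opposite sign. Ribosomal protein genes have many processed pseudogenes, and their reads could not be separated here. Of the 10 largest negative differences in FPKM, 6 were of this list (Rpl3, Rps27, Rps27a, Rpl32, Rpl13 and Rps26). The others were S100a4, a calcium-binding protein gene (316, 378, 702 and 437 FPKM, -0.68), Gstm1, the ferritin gene Fth1 and Ptma. S100a4 was high in Ctrl+OGD. Translation factors (48 genes, 12 above 0, median -0.08), ribosome biogenesis genes (53, 16 above 0, -0.07) and proteasome subunits (44, 9 above 0, -0.09) shared the sign. In all, 2 of these genes were past 1.5-fold, Pabpc4 (-0.62) and Polr1e (-0.65). Without OGD, the medians of these lists were -0.02, 0.01 and 0.19 in the same order, with 36 of 44 proteasome subunits above 0. The aminoacyl-tRNA synthetases had 19 of 39 genes above 0 and a median near 0, with Yars2 (2.73 FPKM to 6.01 FPKM, 0.91) and Farsa (5.68 FPKM to 9.59 FPKM, 0.67) higher and Mars (22.6 FPKM to 12.8 FPKM, -0.78) lower.

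Genes of cell division had few members past 1.5-fold. DNA replication genes were above 0 in 12 of 52 cases with a median of -0.11. Fen1, the flap endonuclease, was higher (13.5, 11.9, 13.7 and 32.1 FPKM, 1.17) and Rpa1, which coats single-stranded DNA, lower (45.3 FPKM to 25.5 FPKM, -0.81). Mitosis genes were above 0 in 25 of 52 cases with a median of -0.01, and Plk4 and Kif20b (23.01 FPKM to 36.3 FPKM, 0.63) were past the limit. Genes of the anaphase-promoting complex were above 0 in 5 of 17 cases with a median of -0.08, and neither these nor the 28 G1 cyclins and CDK inhibitors had a member past 1.5-fold. Differences between these lists were not tested.

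RNA and chromatin genes held single large changes in lists that did not shift. Of the 68 chromatin genes in the list, 36 were above 0 (median 0.05), and 3 were higher and 0 lower. The list does not hold the deacetylase gene Hdac10, which was lower in PGC-1α+OGD as given above. The histone methyltransferase family gene Setd5 was at 25.01, 8.05, 7.71 and 22.04 FPKM (1.403), the cytoplasmic deacetylase gene Hdac6 at 8.96, 8.26, 2.40 and 8.25 FPKM (1.45), and Hdac7 at 5.18 FPKM and 9.40 FPKM in the OGD libraries (0.75). Setd5 was alike in PGC-1α and Ctrl+OGD, whereas Hdac6 was low in Ctrl+OGD only. Among 81 splicing factors, Hnrnpf was at 26.5, 65.9, 97.6 and 40.8 FPKM (-1.24) and the helicase gene Ddx46 at 22.5 FPKM and 11.6 FPKM (-0.90). In the ubiquitin list of 70, the cullin genes Cul7 (4.54 FPKM to 11.4 FPKM, 1.16) and Cul5 (16.9 FPKM to 27.2 FPKM, 0.65) were higher, and the substrate receptor gene Fbxw7 was lower (9.18 FPKM to 4.55 FPKM, -0.88). Of the 81 autophagy and lysosome genes in the list, 29 were above 0 and Atp6v0c, a proton pump subunit, was past the limit (55.2 FPKM to 29.0 FPKM, -0.91). That list does not hold Vps18, which was higher in PGC-1α+OGD as given above.

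The membrane and cytoskeleton lists had medians near 0 and single members past 1.5-fold on both sides. They do not hold the membrane traffic genes Vps18 (2.14), Trappc11 (1.99), Scamp4 (2.502) and Rab2b (1.86), which were higher in PGC-1α+OGD. Nor do they hold Prrt2 (-2.56), a gene of synaptic vesicle release, which was lower. The counts below thus describe the listed genes and not all genes of membrane traffic. Of the endoplasmic reticulum shaping genes (32), Reep6 (28.5 FPKM to 13.4 FPKM, -1.03), Rtn4 (59.3, 73.2, 54.8 and 30.2 FPKM, -0.84) and Rtn3 (40.4 FPKM to 25.2 FPKM, -0.66) were lower and 0 were higher. The reticulons are membrane-curving proteins, and Rtn4, also known as Nogo, was lowest in PGC-1α+OGD. In the nuclear transport list (45), Cse1l and the importin gene Ipo9 (18.0 FPKM to 5.69 FPKM, -1.50) were lower. Among SNARE and vesicle genes (49), Napb (1.86 FPKM to 0.0193 FPKM, -1.49), Syngr2, which shares exons with Gm20708 (60.4 FPKM to 24.9 FPKM, -1.25), and Stx6 (9.99 FPKM to 4.44 FPKM, -1.01) were lower and Esyt2 was higher (9.16 FPKM to 15.5 FPKM, 0.70). Actr3, a subunit of the Arp2/3 complex that branches actin, was at 79.4, 83.8, 90.2 and 38.6 FPKM (-1.20), and Itgav, the integrin αV, at 16.5, 13.5, 22.2 and 11.8 FPKM (-0.86). In the list of Itgav, the talin gene Tln2 (5.85 FPKM to 10.0 FPKM, 0.68) and Pcdhgc3 were higher. Among the microtubule genes (41), Tuba1a (134 FPKM to 79.6 FPKM, -0.75) and Mapre2 (18.3 FPKM to 11.7 FPKM, -0.61) were lower and Map1a was higher (6.75 FPKM to 11.2 FPKM, 0.65). In the coat, Golgi and endosome list (88), Golga2 was higher and Stam lower (7.59 FPKM to 3.27 FPKM, -1.01). Of 45 collagens and matrix genes none was past 1.5-fold, with 19 above 0 and a median of -0.03.

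Few of the neurotrophin and glutamate genes were listed, and the filter behind the listing is unknown. Of 50 neurotrophin, cholinergic and glutamate genes written in the list, 17 were listed and 12 were compared. Of these 12, 3 were above 0 and the median was -0.22, or -0.07 with a mean of at least 5 FPKM. Grik5, given above, and Homer3 were past 1.5-fold downwards. Bdnf was at 6.96, 5.52, 4.30 and 6.37 FPKM (0.47), and the scaffold gene Homer3 at 9.59 FPKM and 5.66 FPKM in the OGD libraries (-0.67). Bdnf was within 1.5-fold and lowest in Ctrl+OGD. Dgcr2 was the only one of 31 axon guidance genes past the limit (43.2, 25.9, 11.7 and 26.2 FPKM, 1.098). The NF-κB, cytokine and chemokine list had 9 of 30 genes above 0 and a median of -0.11, or -0.05 with a mean of at least 5 FPKM. Tnf (2.44 FPKM to 0.967 FPKM, -0.81) and Ccl7 (28.6 FPKM to 17.7 FPKM, -0.67) were lower, and Ccl2 was at 32.5 FPKM and 22.4 FPKM (-0.51). Of 34 interferon-stimulated and antigen presentation genes 3 were higher, Psmb10 (3.99 FPKM to 8.85 FPKM, 0.98), Irf3 (2.36 FPKM to 5.20 FPKM, 0.88) and Tap2 (18.4 FPKM to 30.7 FPKM, 0.71), and H2-T23 was lower (3.10 FPKM to 1.40 FPKM, -0.77).

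**Figure D4:**
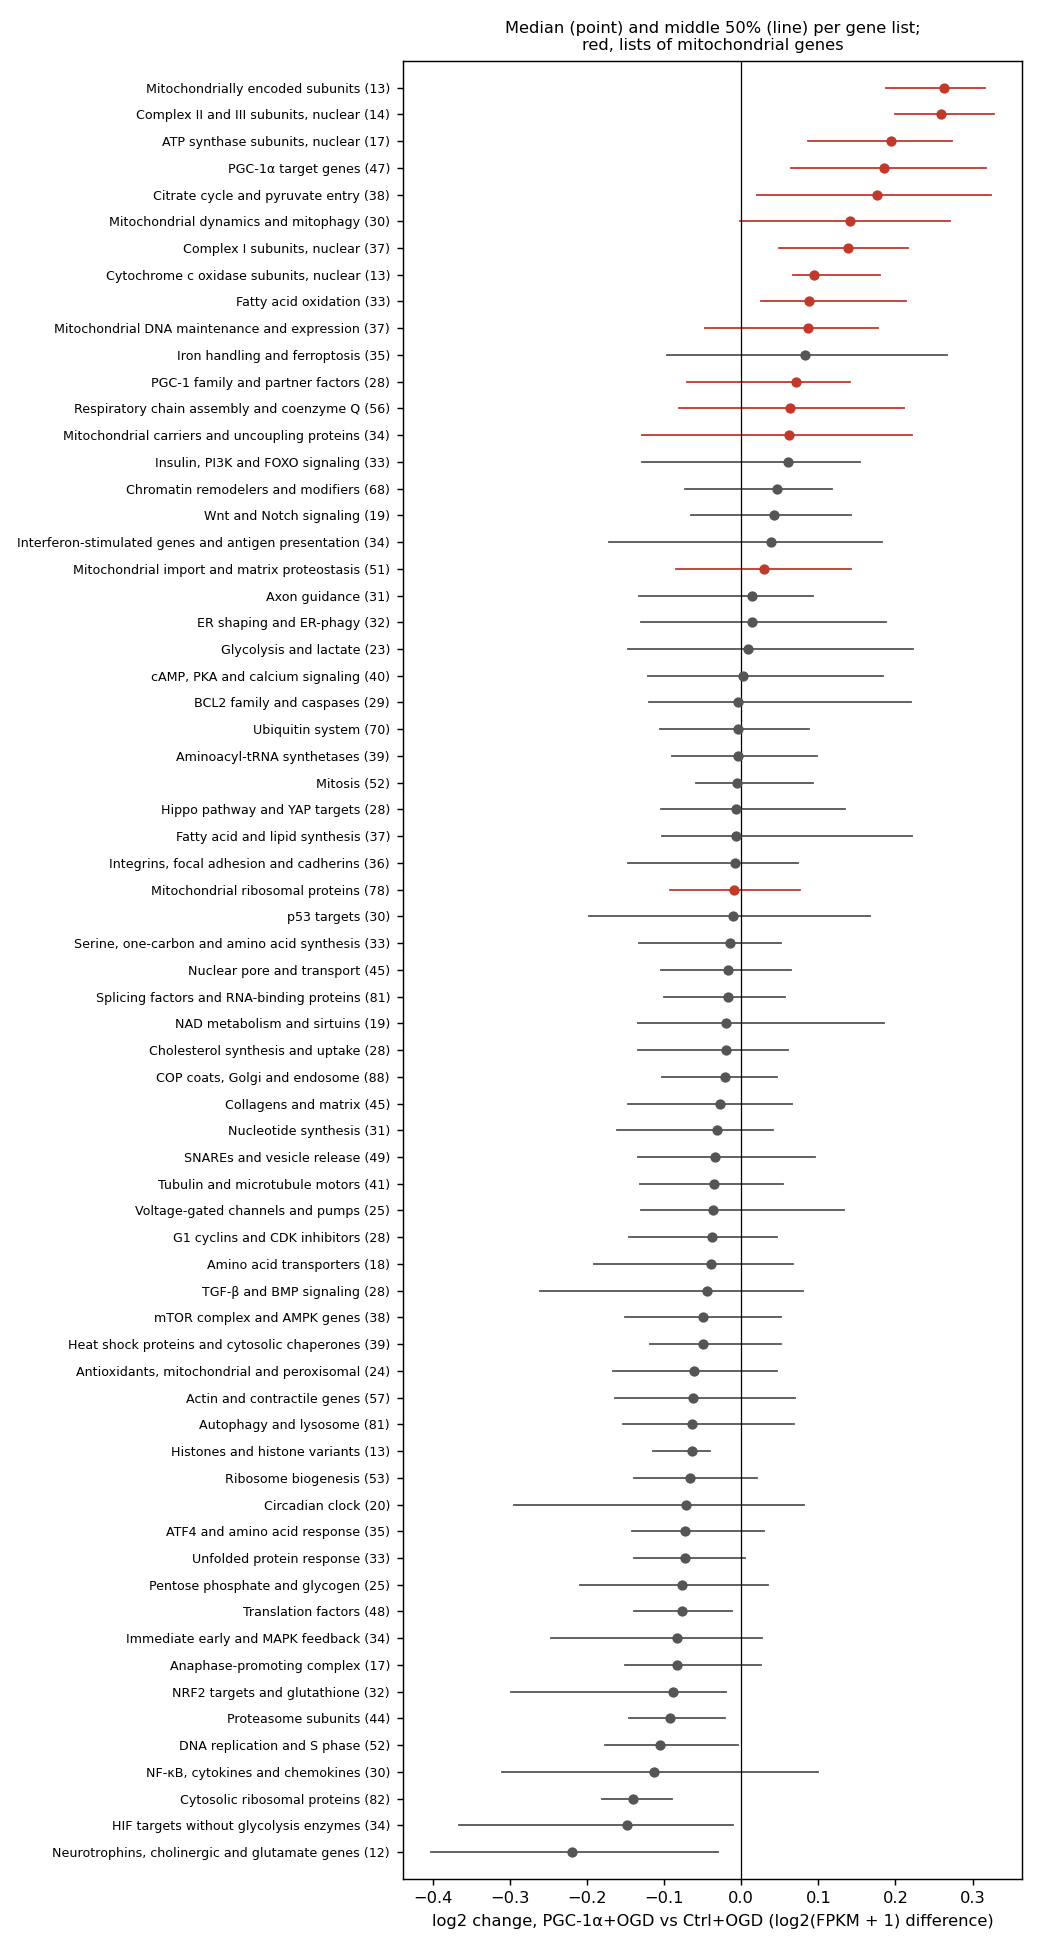
Median log2 change (point) and middle 50% of the genes (line) of each of the 67 function lists in PGC-1α+OGD vs Ctrl+OGD, with the number of genes compared in brackets and mitochondrial lists in red. The 7 lists with a median above 0.1 are mitochondrial or PGC-1α target lists, 5 lists lie below -0.1, and 55 lie within 0.1 of 0.

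Over the 67 function lists, 7 had a median above 0.1 and 5 below -0.1, and 13 had no member past 1.5-fold. The 7 were the mitochondrially encoded subunits, complexes II and III, the ATP synthase, the PGC-1α targets, the citrate cycle, mitochondrial dynamics and complex I. The 5 were the neurotrophin and glutamate genes, the HIF targets, the cytosolic ribosomal proteins, the NF-κB and cytokine genes and DNA replication. With a mean of at least 5 FPKM, the neurotrophin and glutamate genes (-0.07) and the NF-κB and cytokine genes (-0.05) lay within 0.1 of 0. The lists hold 2403 of the 10604 genes compared, including 59 of the 327 higher and 63 of the 405 lower genes. Most of all genes compared, like most of those past 1.5-fold, thus belong to no list.

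The share of genes past 1.5-fold depended on their level and on how many transcripts were listed. Of 665 genes with a mean of 1 to 2 FPKM, 15.5% were past 1.5-fold either way, against 1.55% of 582 genes with 100 FPKM or more. The median level was 6.81 FPKM for the higher, 6.04 FPKM for the lower and 12.6 FPKM for all genes. Of 4199 genes with 1 listed transcript, 5.26% were past 1.5-fold, against 7.98% of 6405 genes with 2 or more. Genes that share exons with another listed gene were past it in 11.4% of 297 cases, against 6.77% of the others. Only listed genes were searched as partners, so exons shared with genes that are not listed were not counted. Median changes also ran from -0.07 in the shortest to 0.04 in the longest of 5 equal groups of genes by transcript length, and from 0.05 to -0.05 from the lowest to the highest of 5 groups by GC content. The cause of these gradients was not tested.

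**Figure D5:**
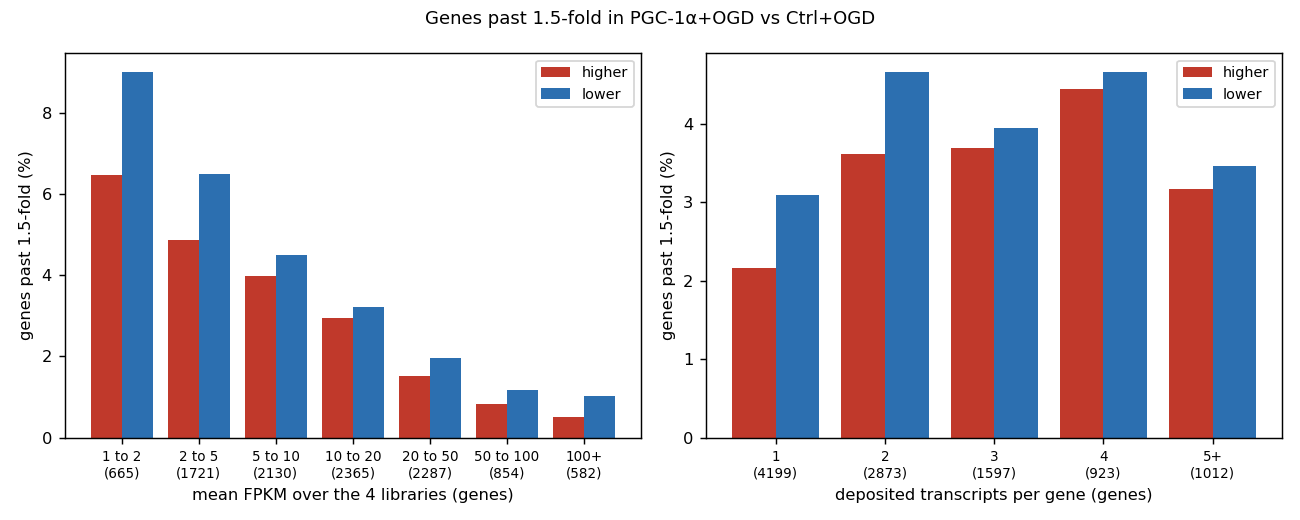
Percentage of genes at least 1.5-fold higher (red) or lower (blue) in PGC-1α+OGD, by mean FPKM over the 4 libraries (left) and by the number of listed transcripts per gene (right), with the number of genes in brackets. The shares fall from 6.47% higher and 9.02% lower at 1 to 2 FPKM to 0.515% and 1.03% at 100 FPKM or more.

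Within genes, transcripts often differed in opposite directions while the sum was alike. Of 4077 transcripts past 1.5-fold, 3191 (78.3%) belonged to genes whose sum was not. In 1317 of 6405 genes with 2 or more transcripts, 1 transcript was at least 1.5-fold higher and another at least 1.5-fold lower, and in 522 of these the sum differed by less than 1.1-fold. Nptxr, a neuronal pentraxin receptor gene, had a sum of 51.3 FPKM (Ctrl+OGD) and 52.9 FPKM (PGC-1α+OGD). Its transcript of 5006 bases was at 0.688 FPKM (Ctrl), 45.8 FPKM (PGC-1α), 51.3 FPKM (Ctrl+OGD) and 0.843 FPKM (PGC-1α+OGD), and that of 4948 bases at 50.3, 0.0218, 0.0319 and 52.1 FPKM. Each library thus held nearly all of the gene in 1 transcript, and Ctrl and PGC-1α+OGD shared the same one. Ldha, the lactate dehydrogenase chain typical of glycolytic tissue, had a sum of 170 FPKM and 161 FPKM over 12 transcripts (-0.08). Its transcript of 1766 bases was at 1.75, 93.8, 111 and 3.85 FPKM, and that of 1815 bases at 58.3, 5.15, 4.44 and 97.9 FPKM, again with Ctrl and PGC-1α+OGD alike. The further genes of this kind with the widest opposite changes were Rdx, Slc38a10 and Ncoa6, the latter a nuclear receptor coactivator (25.5 FPKM to 26.8 FPKM in sum). Whether cells changed the transcript they used or reads were divided differently between alike transcripts was not tested.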

How the data were processed

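Poly(A) RNA of 4 HT-22 cultures was sequenced by the authors from both ends after stranded library preparation, aligned to GRCm38 with HISAT2 2.1.0 (per the labels) and deposited as 1 table of 25889 transcripts. The deposited values were taken as FPKM from their range and totals, since their unit is not named, and the program, annotation and filter behind them are not given in the sources used here. Reads per library are unknown. Identifiers without version were matched to GENCODE M21 (25822, 99.7%), the transcripts of each symbol were summed, and log2(FPKM + 1) was compared where the mean over the 4 libraries was at least 1. Genes were counted at 1.5-fold, the study's fold criterion. With 1 library per group no test was run. The genes named are Ppargc1a, the 30 largest positive and negative changes, the 10 largest in FPKM, per list the 4 largest each way and the most abundant, the PGC-1α targets and partners, the cell markers, and 5 genes whose transcripts differed in opposite directions. The members and the 72 gene lists, written from general knowledge, were chosen with earlier results of these data known. The alternatives were pseudocounts of 0.1 and 0.01, other minimum levels, scaling by median ratios or the upper quartile, a limit of 2-fold, the highest transcript, genes with 1 transcript, and genes without shared exons. Removal of a linear trend in transcript length and GC content was added after the data were seen. Scripts ran in Python 3.11.15 with pandas 2.3.3, numpy 2.4.6 and, for figures, matplotlib 3.10.9, and the counting was tested on simulated data. Values of some named genes are not reported here. Promoter windows are from RefSeq (GRCm38.p6).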

Additional observations from a re-analysis of the deposited data

Results flagged for a closer look

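Of the 60 genes with the largest changes after OGD, 13 were past 1.5-fold in the opposite direction when PGC-1α was compared with Ctrl without OGD. Each group had 1 library, so the difference between the contrasts was not tested, and 1 unusual library could set it for a gene. Over all genes, 4.91% were higher and 5.63% lower by at least 1.5-fold in PGC-1α vs Ctrl, against 3.08% and 3.82% in the OGD pair. The pair without OGD thus held more such genes, and whether 1 of its libraries was unusual was not tested. Rptor had the widest gap among the positive changes, with a log2 change of 1.94 after OGD and -2.47 without, a difference of 4.40. Palm3 had changes of 3.12 after OGD and -1.15 without, a difference of 4.27. Hltf, a helicase-like factor of DNA damage tolerance, had changes of 1.89 after OGD and -2.16 without, a difference of 4.05. In these 3 genes PGC-1α and Ctrl+OGD held the low values. Dagla, which makes an endocannabinoid, had changes of 1.82 after OGD and -1.70 without, a difference of 3.53. For Scamp4 they were 2.502 after OGD and -0.71 without, a difference of 3.21. For the peroxisomal transporter Abcd3 they were 2.30 after OGD and -0.86 without, a difference of 3.17. Metap1d, a mitochondrial methionine aminopeptidase, had 2.49 after OGD and -0.67 without, a difference of 3.16. For Rab2b, a Golgi GTPase, the changes were 1.86 after OGD and -1.0004 without, a difference of 2.86. For Cipc, a partner of the clock protein CLOCK, they were 1.66 after OGD and -0.62 without, a difference of 2.28. Among the negative changes, Prrt2, a gene of synaptic vesicle release that shares exons with Gm42742, had the widest gap, with -2.56 after OGD and 2.85 without, a difference of -5.42. It was near 12 FPKM in PGC-1α (12.1) and Ctrl+OGD (12.4) and near 1 FPKM in Ctrl (0.812) and PGC-1α+OGD (1.26). Borcs8, which shares exons with Mef2b, had -1.64 after OGD and 1.63 without, a difference of -3.27. Stk11ip had -2.03 after OGD and 0.91 without, a difference of -2.94. The phosphatase gene Ctdsp2 had -1.71 after OGD and 1.05 without, a difference of -2.76.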

How the results depend on the processing

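With 1 library per group, only the processing could be varied, and no paired value exists. No paired analysis was possible because each group had 1 library and no test was made. The counts of higher and lower genes were 200 and 233 with a mean of at least 5 FPKM, 108 and 114 at 2-fold, 91 and 130 among genes with 1 listed transcript, and 609 and 755 with the highest transcript in place of the sum. By their sum, 244 and 318 of the last passed the limit too. The other alternatives gave counts within 1.5 times of 327 and 405. The log2 change of Ppargc1a in PGC-1α+OGD vs Ctrl+OGD was 5.39 with a pseudocount of 0.1 and 6.21 with 0.01. Removing the trend in length and GC content gave 327 and 393 genes and a median of -0.09 in place of -0.14 for the cytosolic ribosomal proteins. Over all alternatives, the median of a list moved by more than 0.133, the median size of the change over all genes, in 4 of 754 cases, none of them mitochondrial. Medians of lists close to 0 changed sign under some settings, glycolysis and mitochondrial ribosomal proteins among them, and Ppargc1a and the genes with the 30 largest changes each way did not. With the highest transcript, the changes that differed by over 1.5 times were smaller for Plekhg2 (0.88), Nadk2 (0.65) and Cipc (0.87) and larger for Hacd1 (3.675), Rptor (3.28), Golga2 (3.17), Smpd4 (-3.996), Mfsd10 (-2.94) and Slc47a1 (-3.32). With a mean of at least 5 FPKM, the medians of the neurotrophin and glutamate genes (-0.07) and of the NF-κB and cytokine genes (-0.05) were closer to 0. The unknown depth limits every single value, above all under 5 FPKM.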
